A study of Mus musculus with 13 samples.

Results

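The 6646 regions described here were bound by BLIMP1 in plasmablasts, in none of the other cell types of the study, and away from the ends of protein-coding genes. Summits (1 called position per peak) were merged across all 12 ChIP libraries when at most 200 bp apart, on chromosomes 1 to 19, which gave 152528 regions. A region was kept when both plasmablast libraries had a summit in it, none of the 10 libraries of other cell types did, and it lay more than 5 kb from either end of every protein-coding gene. They were thus chosen by the presence and position of summits in these same libraries, and are called plasmablast-restricted distal regions. They were 29.2% of the 22753 plasmablast regions (exact binomial 95% interval 28.6 to 29.8) and 56.4% of the 11777 plasmablast-restricted regions (55.5 to 57.3). These shares follow from the rule and carry no test.

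BLIMP1 is the zinc-finger product of Prdm1 and drives B cells toward antibody secretion. It is best known there as a repressor that shuts down the B cell programme while the secretory programme is switched on. Binding far from gene ends is often found at enhancers and other control elements, whose target need not be the nearest gene.

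All cells were of the C57BL/6 strain and homozygous for EGFP fused to the N terminus of BLIMP1, and chromatin was precipitated with an anti-GFP antibody. Plasmablasts (2 libraries) were purified B cells kept with 2 ng/mL IL-4 and 10 ng/mL LPS for 3 days and sorted for GFP and CD138. The other cell types were d2 PGCLC sorted for KIT and d6 PGCLC sorted for SSEA1 and INTEGRINβ-3, which are primordial germ cell-like cells grown from knock-in embryonic stem cells (2 libraries each). E12.5 PGC sorted for SSEA1 gave 1 male and 1 female library. Intestinal epithelium at E16.5, sorted for GFP and EPCAM, and photoreceptor precursors, sorted for GFP from retina at postnatal day 4, gave 2 libraries each. The tag was present in every group, so no library lacks it. Plasmablasts were made in culture, and no label states if the replicates were separate cultures or animals. The p-values below therefore measure the spread between libraries, which may be technical. The files hold no expression, so the plasmablast label could not be checked against marker genes.

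The plasmablast libraries held 39944 and 44141 summits, against 7866 to 75237 in the other 10 libraries. Read depth is unknown, so differences in the number of summits can reflect depth or calling as well as binding. Cell numbers also differed. They were lowest in replicate 1 of d2 and of d6 PGCLC and highest in d2 PGCLC replicate 2, with plasmablasts in between. The part of cell number was not tested. Day 6 PGCLC replicate 1 stood apart with 75237 summits, and without it the rule gives 7482 regions. How far the number of summits sets the count of restricted regions was not tested.

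Only promoter windows and miRNAs have sequence in the tables used here, so sequence is shown where a region fell on one of them. The windows run from 250 bases before to 50 after a transcription start (RefSeq, GRCm38.p6, which has the coordinates of mm10). Of the 6646 regions, 86 lay wholly in such a window, 41 of them at a start of a protein-coding gene and 45 at starts of other gene kinds only. A start of a protein-coding gene can be more than 5 kb from its outer ends when it is an internal start. Shown are windows at genes named below, in immunoglobulin loci, or with both a BLIMP1 core and an ETS-IRF element near the summit. Letters run 5′ to 3′ on the strand of the gene that owns the start. Up to 50 bases on each side of the region's midpoint are given, cut at the window's edge, and capitals mark matches on either strand to the motifs spelled out in the next paragraph.
Foxp1, internal start, chr6:99266507-99266607, minus strand: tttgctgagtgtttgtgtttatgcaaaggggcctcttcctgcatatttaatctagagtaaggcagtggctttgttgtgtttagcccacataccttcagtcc
AU020206, lncRNA beyond Akap13, chr7:75782114-75782214, minus strand: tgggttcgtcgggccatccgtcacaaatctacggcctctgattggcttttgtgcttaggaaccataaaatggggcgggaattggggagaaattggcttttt
Gm39266, lncRNA beyond Irf8, chr8:120770220-120770320, minus strand: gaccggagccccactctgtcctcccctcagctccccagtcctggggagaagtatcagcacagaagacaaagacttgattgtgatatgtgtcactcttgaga
Gm51814, lncRNA near Tnfaip3, chr10:19062628-19062728, plus strand: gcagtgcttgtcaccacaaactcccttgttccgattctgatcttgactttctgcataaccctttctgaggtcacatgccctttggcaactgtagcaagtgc
Gm30039, lncRNA beyond Icosl, chr10:78092831-78092913, minus strand: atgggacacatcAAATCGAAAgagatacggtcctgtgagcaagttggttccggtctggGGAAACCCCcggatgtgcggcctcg
Gm46961, lncRNA in the kappa light chain locus, chr6:70718966-70719066, minus strand: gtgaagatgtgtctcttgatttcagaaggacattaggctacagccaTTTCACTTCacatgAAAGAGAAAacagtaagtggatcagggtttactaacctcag
Gm30948, lncRNA in the heavy chain locus, chr12:115262571-115262671, plus strand: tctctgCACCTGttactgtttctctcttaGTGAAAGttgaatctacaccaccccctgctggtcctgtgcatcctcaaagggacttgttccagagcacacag
Gm16214, lncRNA in Sorl1, chr9:42022447-42022547, plus strand: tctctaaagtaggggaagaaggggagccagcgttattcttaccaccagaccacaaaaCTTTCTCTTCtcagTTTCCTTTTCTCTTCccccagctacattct
Gm51710, lncRNA in Smad3, chr9:63731608-63731669, plus strand: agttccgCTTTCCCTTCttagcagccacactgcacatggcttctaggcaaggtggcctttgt
Timd2, internal start, chr11:46699010-46699080, minus strand: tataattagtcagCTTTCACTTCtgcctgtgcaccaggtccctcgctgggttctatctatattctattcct

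The motifs were the BLIMP1 core GNGAAAG, the interferon-stimulated response element AAANNGAAA, the ETS-IRF composite GAANNGAAA, ETS GGAAGTG, the octamer ATTTGCAT, AP-1 TGANTCA, the E-box CAGGTG, NF-kB GGGNNTTCC, EBF CCCNNGGG and RUNX TGTGGTT. The first 3 can overlap, as in Gm16214 and Timd2. In the stretches at Foxp1, AU020206, Gm39266 and Gm51814 none of these motifs was found. At the kappa light chain locus both plasmablast libraries placed their summit on the same base, the middle of the printed stretch, which falls inside the match to the ETS-IRF composite. The BLIMP1 core was in 32.0% of the 97 windows holding a restricted distal region (exact binomial 95% interval 22.9 to 42.2), in 22.7% of all 31365 windows, in 22.4% of 830 windows holding a plasmablast-restricted region within 5 kb of a gene end, and in 38.6% of 1039 windows holding a plasmablast region shared with another cell type. The octamer, a site of the POU factors OCT1 and OCT2, was in 12.4% of the 97 windows (6.56 to 20.6) and 1.75% of all. For the interferon-stimulated element the shares were 20.6% and 10.5%, for the ETS-IRF composite 15.5% and 7.54%, and for ETS 24.7% and 11.1%. EBF stood at 12.4% and 13.9% and RUNX at 6.19% and 5.32%. Counted once per region, 28 of the 86 had a BLIMP1 core in a window and 11 an octamer. The 97 windows had a median GC content of 51.7% and 5 CpG, against 53.0% and 7 in all windows and 61.7% and 22 in the 830 at gene ends. These shares describe a small subset at annotated starts and say nothing of the other regions. Some of the windows overlap each other, and the part of base composition and overlap was not tested.

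Of the 6646 regions, 30 lay within 5 kb of a miRNA hairpin, near 36 of the 917 hairpins on these chromosomes, and 2 overlapped one. Shown are mature products of Mir148a, of Mir16-1 and of those members of the Mir17 cluster that share a seed, with the seed (bases 2 to 8) in capitals.
mmu-miR-148a-3p, chr6:51269829-51269850, minus strand: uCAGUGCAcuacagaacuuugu
mmu-miR-16-5p, chr14:61631936-61631957, minus strand: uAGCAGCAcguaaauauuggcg
mmu-miR-17-5p, chr14:115043684-115043706, plus strand: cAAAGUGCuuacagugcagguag
mmu-miR-20a-5p, chr14:115044183-115044205, plus strand: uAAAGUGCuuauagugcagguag
mmu-miR-19a-3p, chr14:115044048-115044070, plus strand: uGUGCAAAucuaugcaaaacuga
mmu-miR-19b-3p, chr14:115044358-115044380, plus strand: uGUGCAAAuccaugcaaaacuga

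The Mir148a hairpin, whose product is abundant in plasma cells, was overlapped by a region at chr6:51269719-51269834. Plasmablast replicate 2 had its summit inside the hairpin and replicate 1 had one 93 bp from it. In the other 10 libraries the nearest summit was 1042 bp (d6 PGCLC replicate 1) to 147789 bp away. It was almost as near in female E12.5 PGC (1091 bp) and intestinal epithelium replicate 1 (1152 bp). At the Mir17 cluster, which acts in B cell development, the plasmablast summits lay 1346 and 1341 bp before the Mir17 hairpin. There the nearest summit of any other library was 2743 bp away, in intestinal epithelium replicate 2. miR-17-5p and miR-20a-5p of that cluster share the seed AAAGUGC, and miR-19a-3p and miR-19b-3p share GUGCAAA. The other hairpin overlapped was Mir760. A region also lay 4111 bp from Mir16-1, a miRNA known to restrain B cell growth.

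Most plasmablast-restricted distal regions lay inside genes. The number inside a protein-coding gene was 4005, or 60.3% (exact binomial 95% interval 59.1 to 61.4), against 2587 of the 4676 plasmablast distal regions shared with another cell type, or 55.3% (53.9 to 56.8). The other 2641 lay between protein-coding genes. Of these, 594 (22.5%) were inside a lncRNA gene, led by Banf2os with 10, then Morrbid, a lncRNA next to the pro-apoptotic gene Bcl2l11, with 8 and Pvt1, next to Myc, with 8. The files carry no exon models, so exonic and intronic positions were not separated. The median distance to the nearest gene end was 23775 bp (interquartile range 11580 to 52382, largest 1253822), and 26.3% were more than 50 kb away. For the shared distal regions the median was 25866 bp and 30.5% were more than 50 kb away. Among regions between genes whose nearest gene had a known strand, the nearest end was the gene's start in 1140 of 2021 (56.4%). The same share was 76.1% for plasmablast-restricted regions within 5 kb of a gene end.

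**Figure D1:**
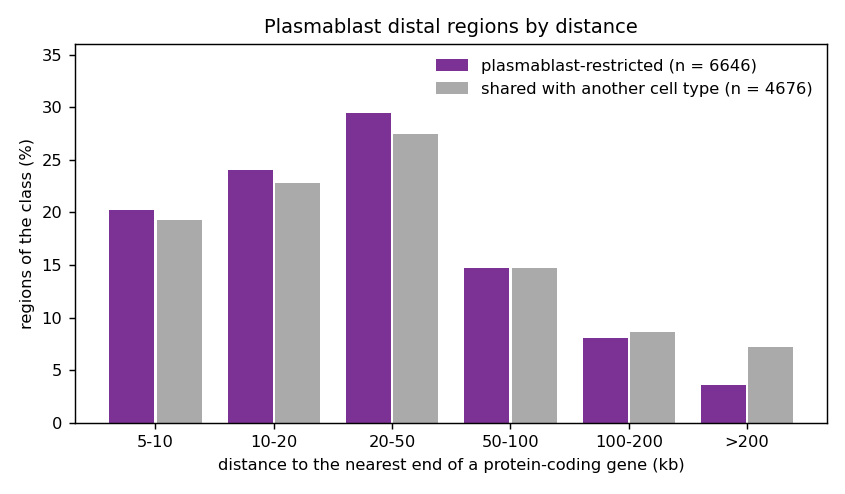
Share of regions (%) by distance to the nearest end of a protein-coding gene (kb) for 6646 plasmablast-restricted distal regions (purple) and 4676 distal plasmablast regions shared with another cell type (grey). Both classes have their largest share between 20 and 50 kb, 29.5% and 27.4%, and above 200 kb they hold 3.57% and 7.16%.

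The share inside genes can be measured in every library, since the rule did not use it. In each library it was taken over distal summits whose region held no summit of another cell type. Plasmablast replicate 1 had 60.5% of 13401 such summits inside genes and replicate 2 had 60.2% of 15952. In the other libraries the share ran from 42.1% in male E12.5 PGC to 52.5% in photoreceptor precursor replicate 2. The groups did not overlap. The mean was 60.4% ± 0.199 (SD, n = 2) in plasmablasts and 49.7% ± 3.33 (SD, n = 10) in the others, a difference of 10.6 percentage points (exact permutation test over libraries, two-sided by absolute difference, p = 0.0152, adjusted p = 0.0303 by Benjamini-Hochberg over 2 measures). With 66 ways to draw 2 of 12 libraries, 0.0152 is the smallest p the design allows. Libraries of 1 cell type are not independent of each other, and over 6 cell type means the smallest possible p is 0.167, which was also the value found.

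Distance was the other measure. The median distance to the nearest gene end was 22.9 kb and 23.1 kb in the plasmablast libraries, and 29.0 kb (d6 PGCLC replicate 2) to 56.7 kb (male E12.5 PGC) in the others. No other library lay below either plasmablast library. The means were 23.0 ± 0.115 kb (SD, n = 2) in plasmablasts and 39.1 ± 9.30 kb (SD, n = 10) elsewhere, a difference of -16.1 kb that did not pass the exact permutation test (p = 0.0606, adjusted p = 0.0606). It passed without male E12.5 PGC, at -14.1 kb with an exact permutation p of 0.0364. Within the plasmablast libraries, the restricted distal summits were inside genes in 60.5% of cases in replicate 1 and 60.2% in replicate 2, against 55.0% and 55.2% of the distal summits shared with another cell type. With n = 2 this within-library difference was not tested.

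**Figure D2:**
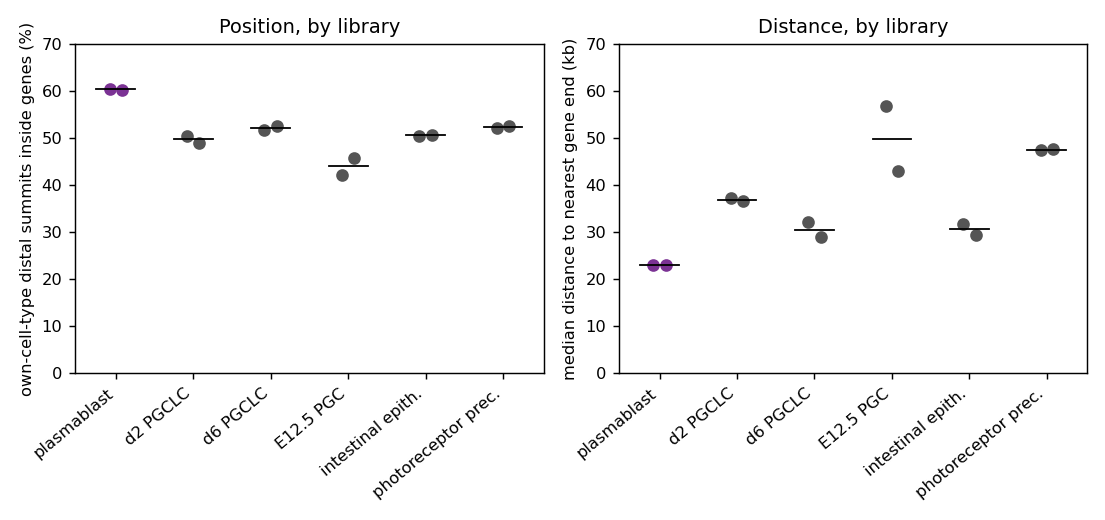
Left, share (%) of each library's distal summits with no summit of another cell type in their region that lay inside protein-coding genes; right, their median distance (kb) to the nearest gene end. Points are libraries, lines are means of the 2 libraries of a cell type, and plasmablasts (purple) are the highest on the left (60.5% and 60.2%) and the lowest on the right (22.9 and 23.1 kb).

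The rule required summits of both plasmablast libraries in 1 merged region, so these lie close together by design. The median gap between the replicates was 54 bp, 47.9% were at most 50 bp apart, and 76 regions had both summits on the same base. The median gap was similar in the other plasmablast classes. It was 50 bp in shared distal regions, and 62 bp in restricted and 60 bp in shared regions within 5 kb of a gene end. The nearest summit of any other cell type was a median of 6802.5 bp away, but 933 regions (14.04%) had one within 1 kb, so restriction there is a matter of a short distance. Just inside and outside the thresholds, 315 restricted regions lay 5 to 6 kb from a gene end and 387 lay 4 to 5 kb away, and 219 members had a foreign summit 200 to 300 bp away. Distal regions restricted to the other cell types by the same rule were fewer, with 2781 for photoreceptor precursors, 665 for intestinal epithelium and 186 for E12.5 PGC, and with 592 and 477 for PGCLC of d6 and d2. Agreement between replicates differed as well. Of the distal regions of plasmablast replicates 1 and 2 with no summit of another cell type, 49.6% and 41.7% were in both libraries, against 1.82% (d6 PGCLC replicate 1) to 72.9% (photoreceptor precursor replicate 1) elsewhere.

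Each region was given to the gene that holds it or, between genes, to the gene with the nearest end. By that rule 3067 of 20665 protein-coding genes (14.8%) had 1 or more regions and 296 (1.43%) had 5 or more. These 296 genes held 2169 regions, 32.6% of all. By the same count photoreceptor precursors had 44 genes with 5 or more, at most 10 in Auts2, and none of the other 4 cell types had any, at most 3 regions a gene. Long genes offer more room, and gene length moved with the count. The median length was 113 kb for genes with 5 or more regions and 14.5 kb for genes with none. Of 533 genes longer than 300 kb, 36 (6.75%) had 5 or more, against 130 of 1780 (7.30%) from 100 to 300 kb long. Its part in the counts was not tested.

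Genes with distal regions were often also bound at an end. A summit of both plasmablast libraries within 1 kb of either end, which the rule did not use, was present at 41.2% of all genes. It was present at 37.8% of genes with no region (exact binomial 95% interval 37.1 to 38.5), 56.5% with 1 (54.1 to 58.9), 64.3% with 2 to 4 (61.4 to 67.2) and 70.6% with 5 or more (65.1 to 75.7). Of the 50 genes with 10 or more, 41 had one. Genes are not replicates, so these intervals cover counting error only. Distal regions restricted to each of the other cell types also became more frequent from bin to bin. For photoreceptor precursors they were at 7.11% of genes with no plasmablast region and 32.1% with 5 or more. For intestinal epithelium the shares were 2.22% and 14.2%. Median gene length rose as well, from 14.5 to 113 kb, and its part was not tested.

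**Figure D3:**
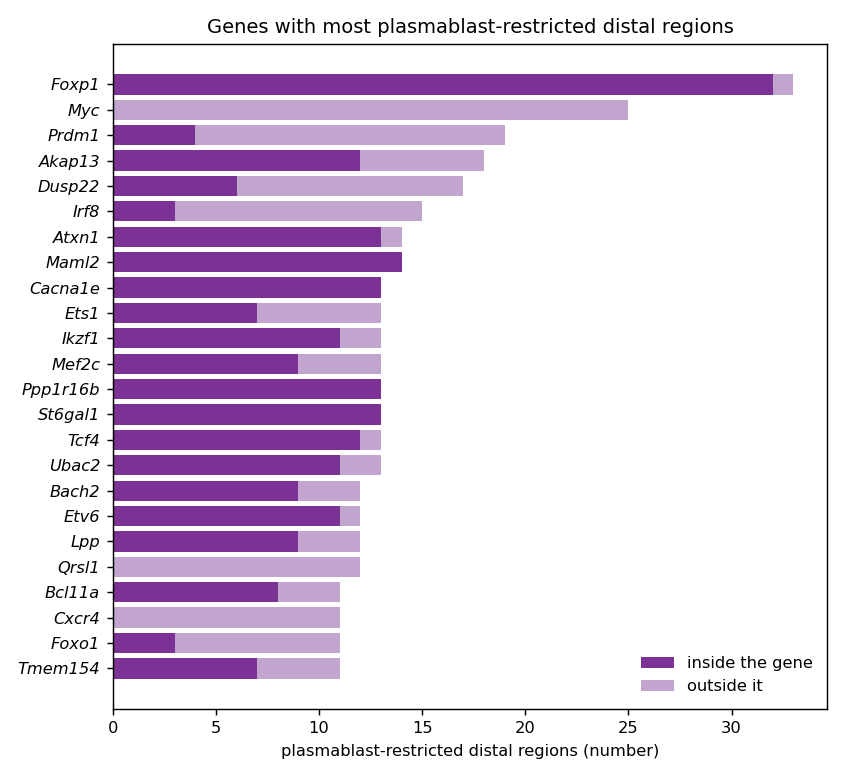
Number of plasmablast-restricted distal regions for 24 of the 25 genes with the most, split into regions inside the gene (dark) and outside it but nearest to it (light). Foxp1 leads with 33, 32 of them inside, followed by Myc with 25, outside because the gene is too short to hold one, and Prdm1 with 19, 4 inside.

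Transcription factors of the B cell programme head the ranking. The values in this and the following paragraphs describe what the rule selected and are not tests. Foxp1, a forkhead factor required for early B cell development, had 33 regions, 32 inside its 597 kb. Its locus, the gene plus the outermost regions, held 71 and 81 summits in the plasmablast libraries and 2 to 47 (median 7) in the other 10. The highest of the others was d6 PGCLC replicate 1. Ikzf1, which encodes Ikaros, had 13 regions, with 27 and 36 plasmablast summits in the locus against 0 to 7 (median 0) elsewhere. Ets1, an ETS factor known to restrain plasma cell formation, had 13, 7 of them inside. Mef2c, a MADS-box factor of B cell activation, and Tcf4, an E protein, also had 13 each. Bach2, a repressor of Prdm1 in activated B cells, had 12, and Etv6 had 12. Foxo1 and Bcl11a, both needed for B cell development, had 11 each. The Foxo1 locus held 30 and 30 plasmablast summits and 1 to 35 (median 3) in the other 10 libraries, the highest being d6 PGCLC replicate 1. That library also exceeded both plasmablast libraries in some other loci. Examples are Cd83 (38 against 23 and 23), Elmo1 (33 against 29 and 27) and Bcl2l11 (36 against 17 and 35). Ebf1 and Pax5, which set up and keep B cell identity, had 11 and 10, all of them inside the gene.

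Irf8 encodes an interferon regulatory factor of B cells and myeloid cells. Of its 15 regions 3 were inside the 20.3 kb gene and 11 beyond its far end, 6.72 to 75.4 kb away. Among these 11, 8 made a chain within 15.8 kb at chr8:120763414-120779240, where a chain is a run with no gap over 10 kb. The locus held 29 and 37 plasmablast summits and 0 to 3 (median 1) in the other libraries. The locus was drawn around regions chosen for plasmablast summits, so this gap is partly set by the rule.

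Prdm1 itself had 19 regions, 4 inside the gene and 15 before its start, 57.9 to 207 kb away. The locus held 50 and 48 plasmablast summits, against 7 to 47 (median 10) elsewhere, with d6 PGCLC replicate 1 again the highest of the others. No foreign summit lay within 1 kb of any of the 19. From Prdm1 to the next gene, Prep, 22 of 29 plasmablast regions were of the restricted distal kind and 6 were shared with another cell type.

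Irf4, the partner factor that drives plasma cell formation with BLIMP1, had 5 regions of its own. Its neighbour Dusp22, a phosphatase gene, had 17, of which 10 lay before its start, 6 inside and 1 beyond its far end. These 17 lay 21.5 to 145 kb from Irf4. Between Uqcrfs1 and the far end of Irf4, over 222 kb, 24 of 34 plasmablast regions were of the restricted distal kind. The stretch held 69 and 69 plasmablast summits, against 0 to 3 in the other libraries. A chain of 7 lay before the start of Dusp22, at chr13:30625383-30639024, in 13.6 kb. Which gene these regions act on cannot be told from position.

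Myc, the growth-promoting factor that BLIMP1 is known to repress, had 25 regions. None could lie inside its 5.02 kb, since the rule keeps regions more than 5 kb from both ends. They lay 8.39 to 834 kb beyond its upper end in 23 cases and 436 to 439 kb below its lower end in 2, and 8 of them were inside Pvt1. The plasmablast libraries had 64 and 70 summits there, against 2 to 38 (median 14) elsewhere. Cxcr4, the chemokine receptor that guides plasma cells to bone marrow, is likewise too short (4.10 kb) to hold a region and had 11 outside it, 9.33 to 175 kb from the nearest gene end. Qrsl1, a mitochondrial enzyme subunit, had 12, all beyond its far end. Such distances make the assignment to the nearest gene uncertain. Ubac2 had 13, or 5 when regions go to the nearest gene end whatever gene holds them, and the receptor genes Gpr18 and Gpr183 lie inside it. Gpr183 encodes the oxysterol receptor that positions activated B cells, and 1 region lay in it.

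Among the other leading genes, Akap13, a scaffold of protein kinase A, had 18 regions, with 46 and 46 plasmablast summits against 0 to 12 (median 3). St6gal1, the sialyltransferase that makes CD22 ligands, had 13, all inside, and Ppp1r16b, a phosphatase regulatory subunit, had 13, all inside. Maml2, a Notch coactivator, and Atxn1 had 14 each, Cacna1e, a calcium channel subunit, 13, Lpp 12 and Tmem154 11. By regions inside the gene per 100 kb, Vps37b, a sorting complex subunit, led with 25.3. Laptm5, a lysosomal protein that lowers B cell receptor levels, followed with 21.5, from 5 regions within 4.10 kb. With merging at 100 bp it had 2 regions. Its locus had 10 and 9 plasmablast summits, and in the other libraries 1 summit in all. Csk, the kinase that inhibits SRC family kinases, had 18.5 inside per 100 kb. The adaptor gene Sla had 8 regions within 27.0 kb, with 18 and 18 plasmablast summits against 1 in all other libraries together. The other genes by this measure were Sema4b, Swap70, Hvcn1 and Ptp4a2.

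Long runs of regions were uncommon. With gaps of at most 10 kb, 3802 regions (57.2%) stood alone and 60 chains of 5 or more held 363 regions (5.46%), with a median span of 18.1 kb. The chain with the most was in Foxp1, with 9 in 39.6 kb. Chains of 8 lay at Irf8, between Cxcr5 and Ddx6, near Smndc1, near Snx5 and in Smad3, a TGF-beta signal transducer, where 8 lay within 31.2 kb. Chains of 7 included those at Prdm1, Dusp22, Sla, Swap70 and Dock2, at Fli1, an ETS factor gene next to Ets1, and at Gfi1, a zinc-finger repressor of blood cells.

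The 11 gene lists were described by their counts. Over all genes the shares to set beside them are 14.8% with 1 or more regions, 1.43% with 5 or more and 41.2% with an end summit, a summit of both plasmablast libraries within 1 kb of an end. Among 26 B cell transcription factors, 23 had 1 or more regions and 13 had 5 or more, with a median of 4 regions against 0 over all genes. The 3 without were Spib, Tcf3 and Id3. Of 16 plasma cell genes, 15 had a region and 4 had 5 or more. Apart from Prdm1 these were Zbtb20 with 11, or 0 when regions go to the nearest gene end, Tent5c with 8 and Irf4 with 5, while Xbp1, which drives secretory expansion, had 3, all before its start. Mzb1 was the one without. The median length was 84.9 kb for the B cell factors and 21.7 kb for the plasma cell genes, against 17.5 kb over all genes, and its part was not tested.

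Of 24 B cell receptor signalling genes 18 (75.0%) had a region and 9 (37.5%) had 5 or more, against 14.8% and 1.43% over all genes. Nfatc1 and the PI3K adaptor Pik3ap1 had 9 each and Rasgrp3, Plcg2 and the inositol phosphatase Inpp5d 7 each. The receptor parts Cd79a and Cd79b had none. Among 28 cytokine, Toll-like receptor and NF-kB genes 15 (53.6%) had a region and 4 (14.3%) had 5 or more. Nfkb1 had 8, Nfkbiz 6, Jak1 6 and the NF-kB inhibitor gene Tnfaip3 5. Of 25 migration and adhesion genes 16 (64.0%) had a region and 7 (28.0%) had 5 or more. After Cxcr4 came Elmo1 with 9 and Cd44 and Dock2 with 7 each. Of 20 survival and cell cycle genes 11 (55.0%) had a region and 3 had 5 or more, and Bcl2 and its antagonist Bcl2l11 had 8 each, the count of Bcl2l11 being 15 by nearest end.

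Of 30 genes of endoplasmic reticulum secretion 12 had a region, against 14.8% of all genes, and none had 5. An end summit was present at 26 of them (86.7%), against 41.2% of all genes. Sec61g, a translocon subunit, and Ern1, the sensor that activates Xbp1, had 2 each. Class switching and repair had 1 of 14 genes with a region (7.14%), Xrcc6, and 12 with an end summit (85.7%). In costimulation and antigen presentation 6 of 19 (31.6%) had a region, Cd83 having 8, and 13 (68.4%) had an end summit.

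Of 20 T, NK and myeloid markers 5 had a region, at most 2 (Klrb1c), against 14.8% of all genes, and 2 had an end summit, against 41.2%. The 5 with a region were Klrb1c with 2 and Cd247, Gata3, Tcf7 and Itgam with 1 each. Those without included Cd3e, Cd4, Cd8a, Lyz2, Mpo and Csf1r. Long neuronal genes, a list of very long genes with a median of 1130 kb, had a region at 4 of 20, at most 3, and an end summit at 1, where the shares over all genes were 14.8% and 41.2%. Of the same 20 genes, 13 had a distal region restricted to photoreceptor precursors, a kind found at 1860 of the 20665 genes. Of the fixed B cell genes, Bcl6 had 2 regions, both 147 to 163 kb from a gene end, and Id3 had none.

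**Figure D4:**
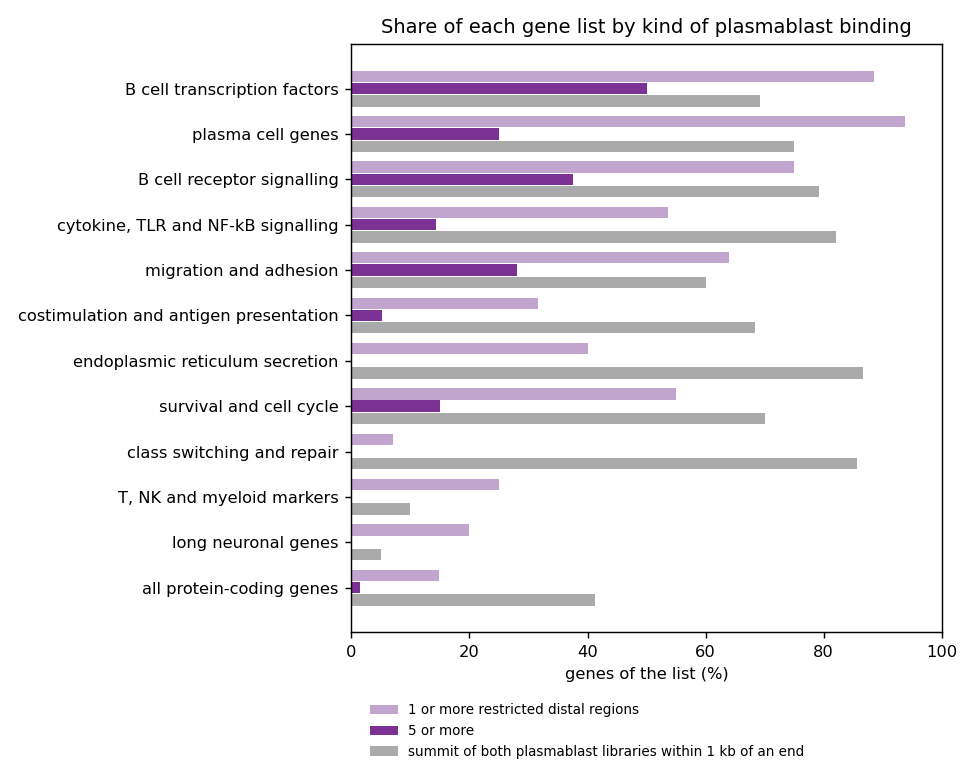
Share (%) of the genes of each list, and of all 20665 protein-coding genes, with 1 or more plasmablast-restricted distal regions, with 5 or more, and with a summit of both plasmablast libraries within 1 kb of an end. B cell transcription factors reach 50.0% with 5 or more, against 1.43% of all genes. Endoplasmic reticulum genes show 86.7% with an end summit, against 41.2% of all genes.

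The immunoglobulin loci, whose gene segments are no protein-coding genes in the table, held regions as well. In the heavy chain locus (chr12:113256204-116009954) 12 of 15 plasmablast regions were of the restricted distal kind. It had 24 and 23 plasmablast summits, against 0 to 8 elsewhere. Among these, 2 lay in Ighg3, 1 in Ighm, and 3 in the interval between Ighj4 and Ighm, which is known to hold the intronic enhancer and switch sequence. In the kappa locus (chr6:67555636-70726754) it was 12 of 15, with 23 and 31 summits against 0 to 21 elsewhere, the most in d6 PGCLC replicate 1. Of these 12, 8 lay within 200 bp of a V segment or V pseudogene. In the lambda locus (chr16:19061752-19260844) it was 8 of 8, with 12 and 12 summits against 0 or 1. V segments are close copies of each other and rearranged in B cells, so the placing of reads there is uncertain.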

How the data were processed

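The submitters' processing notes name MACS2 2.1, Bowtie 1.1.2, cutadapt 1.7.1 and Trim Galore 0.3.7, and the build mm10. The authors deposited 1 list of summit positions per ChIP library, with no height, score or p-value. Neither the calling threshold and control nor the base from which positions are counted (0 or 1) is given in the sources, so a position may be off by 1 bp. The input library was not analysed here. Genes came from a RefSeq table of GRCm38.p6, with 20665 protein-coding genes on chromosomes 1 to 19.

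Summits were merged by single linkage at 200 bp with numpy 2.4.6, pandas 2.3.3 and scipy 1.17.1. Named genes were the 25 with the most regions, the 10 with the most regions inside per 100 kb, up to 4 per list and 10 fixed genes. The results of some of these are not reported here. Members and lists were chosen with earlier results of these data known. The planned choice of sequences and the planned motif tests per library need a genome of the build, which was not used here, and promoter windows took their place after the files had been seen. Merging, distances and the permutation test were tested on simulated data. Whether replicate numbers pair libraries across cell types is unknown. Replicate 1 was the higher in 2 of 5 cell types for the share inside genes and in 3 of 5 for distance. Such counts cannot decide it, since a shared batch need not move every cell type the same way. Intervals are exact binomial (95%) and cover counting error only. Of the list genes, Btk, Il2rg and Irak1 are not on chromosomes 1 to 19 and were left out of the counts.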

Additional observations from a re-analysis of the deposited data

Results flagged for a closer look

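The rule leaves out the sex chromosomes. On chromosome X, 256 regions met its other conditions, a signal in data the comparisons do not use, and 2 did so on Y. The X genes with 5 or more were Bcor, a corepressor of BCL6, with 11, Olfr1324 with 7, the actin-binding peptide gene Tmsb4x with 7, the ETS factor gene Elf4 with 6 and the adaptor gene Sh3kbp1 with 5.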

How the results depend on the processing

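The number of regions rests on both plasmablast libraries. It was 16084 without plasmablast replicate 1 and 13546 without replicate 2, and leaving out each of the 12 libraries in turn gave 6669 to 16084. Genes with 5 or more numbered 983 and 808 without these libraries, and 297 to 983 over all 12. Merging at 100 or 500 bp gave 5282 and 7126 regions, and a limit of 2 or 10 kb from gene ends 8071 and 5302. With the ends of genes of all kinds the share inside protein-coding genes was 67.1%, on 5260 regions, and the cause was not tested. Of 72 named genes, 15 changed their count by over 1.5 times at 100 bp, 3 at 500 bp, 5 with the nearest end only, 2 without d6 PGCLC replicate 1, and 62 and 52 without plasmablast replicates 1 and 2. The difference in the share inside genes was 9.83 to 10.98 points with 1 library left out (exact permutation p 0.0182 to 0.0909). It passed in each case but the 2 with a single plasmablast library, where p cannot go below 0.0909. As 1 mean per cell type it was 10.6 points with an exact permutation p of 0.167, again the smallest possible. The distance difference was -17.1 to -14.1 kb with 1 library left out (exact permutation p 0.0364 to 0.182). It passed over all distal summits, at -11.8 kb (exact permutation p = 0.0152). Taking the p as 2 times the smaller tail, chosen after seeing the data, left the difference at -16.1 kb and gave p = 0.0303 for both measures in the permutation test. With a replicate block, and E12.5 PGC left out because it has 1 library per sex, the differences were 9.21 points (exact permutation p = 0.04, the smallest possible) and -13.4 kb (p = 0.08). All other alternatives for these results kept direction and side of the threshold. The planned 100 bp sequence windows were not run.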
